A study of Mus musculus with 12 samples.

Results

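Cytosolic ribosomal protein genes were taken as the protein-coding rows of the count table whose symbol starts with Rps or Rpl followed by a number, with Rplp0, Rplp1, Rplp2 and Rpsa, and without the ribosomal S6 kinases. The rule gave 97 of 52550 annotated genes, 36 with small subunit names and 61 with large subunit names. In 95 of them at least 1 read was counted, and 88 passed the filter on low counts and were tested. Membership by name takes in 2 genes of another kind: Rps19bp1 encodes a protein that binds Rps19, and Rpl7l1 encodes an Rpl7-like protein. It also takes in rows that are annotated as protein-coding although their symbols mark them as pseudogenes, and it leaves out Fau and Rack1, which are described separately.

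The counts came from rRNA-depleted RNA of whole lungs of C57Bl/6J mice on postnatal day 5, 1 lung per library. The mice were wild-type (WT, Adm+/+) or heterozygous for a knockout of adrenomedullin (Adm+/-), a peptide that acts on blood vessels and lymphatics. They were injected intraperitoneally each day from postnatal day 3 to 5 with PBS or with lipopolysaccharide (LPS) of Escherichia coli O55:B5 at 6 mg/kg, a bacterial outer membrane component that sets off inflammation. Tissue was collected 6 h after the final injection. Each of the 4 groups held 3 libraries, named by the library numbers of the labels: WT PBS 3, 4 and 5, WT LPS 9, 10 and 11, Adm+/- PBS 6, 7 and 8, and Adm+/- LPS 1, 2 and 12.

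The cytosolic ribosome joins a small subunit, which decodes the mRNA, to a large subunit, which forms the peptide bond. Its proteins are needed in fixed proportions, and their mRNAs are among the most abundant of most cells. Most of these mRNAs begin with a C followed by a run of pyrimidines, the 5′ terminal oligopyrimidine (TOP) tract, through which mTORC1 and the RNA-binding protein Larp1 control how much of the mRNA is translated. Such control acts on translation and need not change the mRNA level, and only mRNA levels were measured here.

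The sequences around the transcription start are shown because many of these genes hold a feature there that is less common in other promoters. Promoters were found for 66 of the 97 members in the RefSeq promoter table (GRCm38.p6), 78 promoters in all. A run of at least 7 bases, all C or T and starting with C, was present on the transcribed strand between 20 bases before and 50 bases after the start in 70.5% of the member promoters and in 29.5% of all 32851 promoters. Each window below runs from 30 bases before to 30 bases after the start, 5′ to 3′ on the strand of the gene, with those runs in capitals. The first 4 genes had low counts and the next 3 had high counts in the library WT PBS 5, as described further on, and Rpl3l is the member with the largest fold change under LPS in WT mice.
Rps27 (chr3:90213619-90213678, minus strand): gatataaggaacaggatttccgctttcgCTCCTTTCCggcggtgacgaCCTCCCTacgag
Rps28 (chr17:33824533-33824592, minus strand): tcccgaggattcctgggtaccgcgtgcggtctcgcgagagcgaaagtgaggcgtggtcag
Rpl39 (chrX:37085193-37085252, minus strand): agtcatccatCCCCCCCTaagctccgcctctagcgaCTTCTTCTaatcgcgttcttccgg
Rpl35 (chr2:39005102-39005161, minus strand): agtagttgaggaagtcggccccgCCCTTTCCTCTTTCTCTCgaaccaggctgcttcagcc
Rpsa (chr9:120127736-120127795, plus strand): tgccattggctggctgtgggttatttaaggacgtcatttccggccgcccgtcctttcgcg
Rplp2 (chr7:141447621-141447680, plus strand): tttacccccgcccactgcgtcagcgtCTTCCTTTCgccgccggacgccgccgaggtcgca
Rpl38 (chr11:114668550-114668609, plus strand): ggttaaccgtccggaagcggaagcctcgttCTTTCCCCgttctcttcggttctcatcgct
Rpl3l (chr17:24727796-24727855, plus strand): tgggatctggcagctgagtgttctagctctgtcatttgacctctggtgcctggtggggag
Within the windows shown, both ends of the WT PBS 5 order included genes with the run and a gene without it (Rps28 and Rpsa), and the Rpl3l window had none. The bases from there to 50 after the start, which count in the shares above, are not shown. The GC box GGGCGG, searched on both strands of the 300 bases, was present in 60.3% of member promoters, against 35.7% of all promoters and 47.8% of those of protein-coding genes. The letters CCGGAAGT, a site form bound by ETS factors, were present in 15.4%, against 3.89% and 5.33%, also on both strands. TATAAA within the 50 bases before the start, on the transcribed strand, was present in 1.28%, against 2.63% and 3.08%. For the pyrimidine run the share among protein-coding promoters was 29.3%.

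Total counts per library ranged from 22382535 to 38062873, and the members took 349222 to 745266 of them. Adm itself was measured at 74 to 252 counts per library. Its level was 5.21 ± 1.66 CPM in WT PBS, 6.79 ± 2.03 in WT LPS, 3.69 ± 0.855 in Adm+/- PBS and 4.65 ± 1.42 in Adm+/- LPS (mean ± SD, n = 3; CPM, counts scaled by library size). The genotypes overlapped under both treatments, and the log2 difference of -0.50 in PBS did not pass (edgeR adjusted p = 0.999), so the expression of Adm did not by itself separate the genotype labels. The lung label was matched by the summed level of 10 type II pneumocyte genes, 13752 to 17473 CPM in every library. WT PBS 5 and Adm+/- PBS 6 stood apart from the other 10 libraries: 77.8% and 80.1% of their counts lay on protein-coding genes against 84.3% to 87.6%, and the single row Gm26917 took 16.6% and 13.3% against 5.42% to 7.40%. The main results that turn on them are given with and without them.

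The members took a small and similar share of every library, between 1.56% in WT PBS 5 and 1.96% in WT LPS 9. In WT PBS the share was 1.62%, 1.74% and 1.56%, and in WT LPS it was 1.96%, 1.78% and 1.78%, so the WT groups did not overlap. In Adm+/- PBS it was 1.74%, 1.81% and 1.68%, and in Adm+/- LPS it was 1.72%, 1.74% and 1.71%, which lay inside the PBS range. The group means were 1.64% ± 0.0893, 1.84% ± 0.104, 1.74% ± 0.0646 and 1.72% ± 0.0112 in that order (SD, n = 3). No test was made on this sum over members. In whole tissue, fewer cells of a type and less RNA per cell cannot be told apart.

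**Figure D1:**
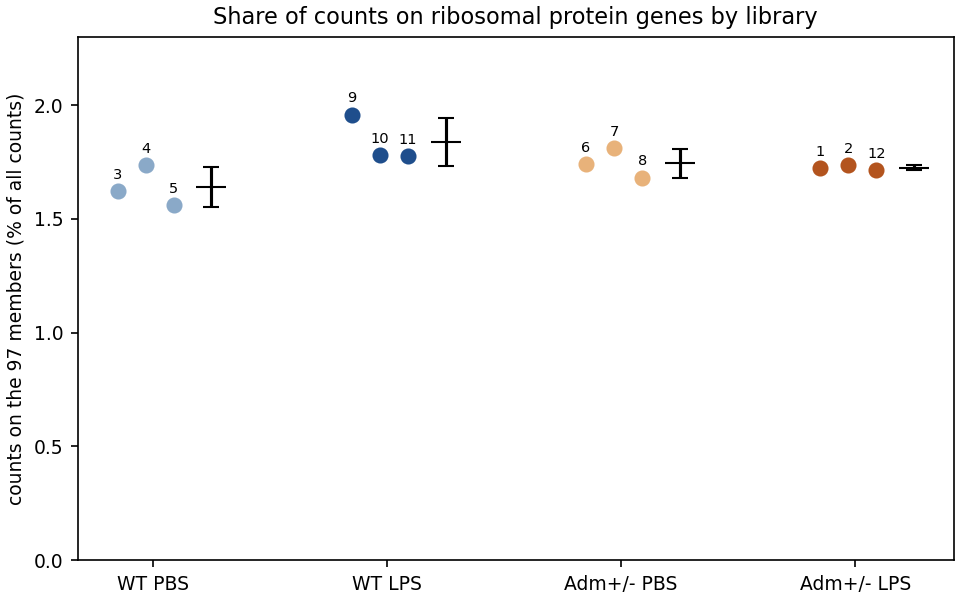
Counts on the 97 members as a percentage of all counts (vertical axis, from 0) in each library, numbered as in the labels, with the mean and SD of each group of 3 beside the points. The 3 WT LPS libraries lie between 1.78% and 1.96%, above the WT PBS libraries, and the Adm+/- groups overlap.

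Levels were compared between genes per kilobase, as the mean CPM of 12 libraries divided by the length of the shortest principal transcript. Rpl41, which encodes the smallest ribosomal protein, stood highest at 1117 CPM per kb, followed by Rps4x at 993, Rps14 at 899, Rpl37a at 793 and Rps24 at 742.5. Rpl41 was measured at 414.5, 459.0 and 474.7 CPM in WT PBS, 501.9, 503.1 and 478.3 in WT LPS, 526.4, 515.1 and 443.4 in Adm+/- PBS, and 510.4, 480.4 and 548.4 in Adm+/- LPS. Its WT groups did not overlap, and its log2 change in WT mice of 0.14 (SE 0.10) did not pass (adjusted p = 0.326). Rps4x, the X-linked form of a small subunit protein, was highest in the 2 libraries that stood apart, at 1301 CPM in WT PBS 5 and 1347 in Adm+/- PBS 6, against 787.1 to 1042 in the other 10. Rps14 at 962.2 and 786.7 CPM against 397.0 to 525.5, and Rpl37a at 787.8 and 686.2 CPM against 316.5 to 422.7, did the same, so the order of the first 5 rests in part on these libraries. Over the other 10 libraries the first 5 were Rpl41 at 1111 CPM per kb, Rps4x at 920.2, Rps14 at 786.1, Rps24 at 724.6 and Rps12 at 704.8, and Rpl37a at 687.9 was seventh. The levels per kilobase were far from equal: 78 members had at least 20 CPM, and these ran from 1117 down to 42.8 CPM per kb. The lowest of them were the paralogs Rps27l and Rpl22l1 (48.1) and the Rpl7-like Rpl7l1 (48.9). Rps20 came next at 79.3 CPM per kb, with a principal transcript of 3706 bases against a median of 680. These levels thus depend on the transcript length used. Among members that belong to every ribosome, Rpl13a was low at 13.2 CPM per kb, and Rpl24, which forms a bridge between the subunits, was lowest at 4.10 CPM per kb. The Rpl24 row shares its strand with the overlapping gene Gm28037, which had 0 CPM, and only 18.3% of the 50-base words of its principal transcript were found in no other transcript. Rpl13a overlaps Gm45713 in the same way, and so does Rpl13 with Gm20388, both at 0 CPM, while Rpl13 itself was at 342.1 CPM. The part of overlap and shared sequence in the low counts was not tested.

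**Figure D2:**
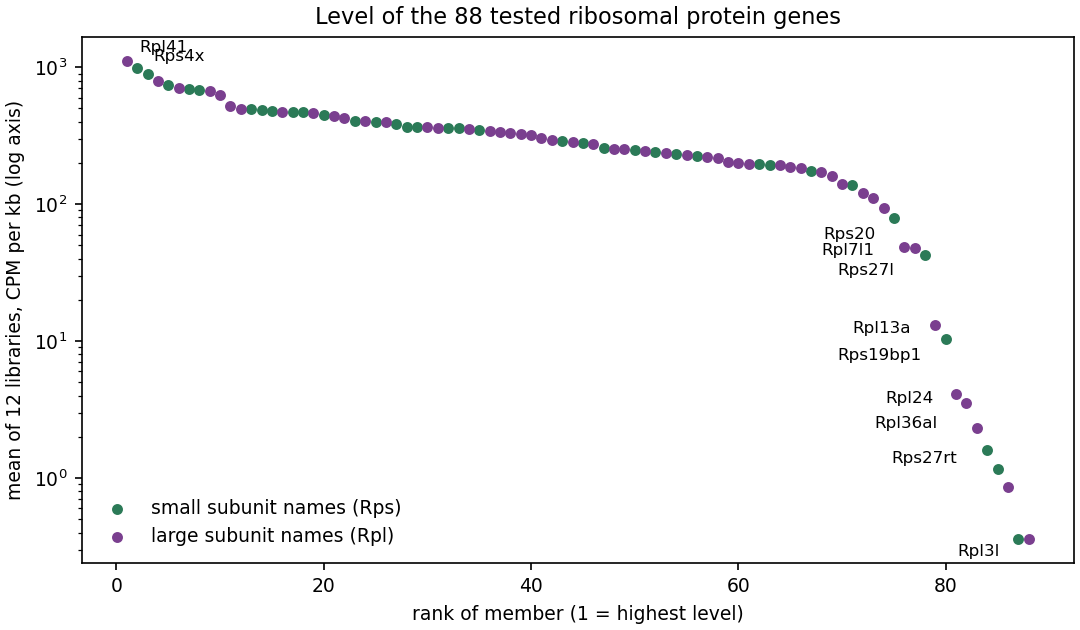
Mean level of the 12 libraries in CPM per kb (vertical log axis) for the 88 tested members, ranked from the highest, with small subunit names in green and large subunit names in purple. Most members lie between about 1117 and 79.3 CPM per kb (Rps20), with a tail of paralogs, Rpl13a, Rpl24 and rows named as pseudogenes.

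Sequence shared with other genes limits these levels. In Gencode M21, 92 of the 97 members shared at least 50 bases with a pseudogene, 1104 pseudogenes in all, and the median member had 37.8% of its 50-base words to itself, from 0% for Rps12-ps3 to 100% for Rpl3l and others. The 265 pseudogene rows with ribosomal protein names took less than 0.01% of the counts of any library, and the 982 rows of sharing pseudogenes took 0.0255% to 0.0344%. Within the members, 30 hold 58 small nucleolar RNA genes in their introns, which guide rRNA modification, and 26 overlap a gene on the opposite strand. The counts are therefore uncertain for the members with a near-identical copy, since the handling of reads that fit several places is not given in the sources used here.

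In WT mice under LPS few of these genes were called, and most had small positive fold changes that did not pass the test singly. A gene was called when its edgeR adjusted p lay under 0.05 and its log2 fold change lay beyond 0.5 in either direction. Of 88 tested members, 2 were past both thresholds and higher, Rpl3l and Rps12-ps3, and 0 were lower. Across all 15885 tested genes 17.6% were past both thresholds and 10.5% were higher. At an adjusted p below 0.05 with any fold change, 12 members passed (13.6%), all higher, against 21.3% of all genes and 11.9% higher. The median log2 fold change was 0.22 over the members and 0.01 over all tested genes, and 75 members had a positive value against 50.9% of all genes. In 39 members every LPS library lay above every PBS library, against 18.3% of all tested genes, and in 0 members every LPS library lay below, against 17.9%. Without WT PBS 5 and Adm+/- PBS 6 the median was 0.19 with 83 of 88 members positive, the interquartile range narrowed from 0.32 to 0.13, and 15 members had an adjusted p below 0.05, all higher, against 21.5% of all genes. Without WT LPS 9 as well, the median was 0.14 with 78 of 87 positive, and 1 member, Rps28, had an adjusted p below 0.05, against 13.7% of all genes. Leaving out WT LPS 9 alone gave a median of 0.15 and 1 such member, Rpl3l, against 9.57% of all genes. Leaving out WT PBS 5 alone gave 5 such members against 17.3%, leaving out WT LPS 10 alone gave 7 against 18.2%, and a fit of the 6 WT libraries alone gave 1 against 7.4%, so the share over all genes was also smaller in these fits.

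The 10 abundant members with an adjusted p below 0.05 in WT mice came from both subunits: Rps12, Rps16 and Rps23 of the small subunit, Rpl23, Rpl27a, Rpl28, Rpl29, Rpl32 and Rpl37 of the large subunit, and Rplp0, the base of the stalk that binds elongation factors. Rpl27a was measured at 191.3, 219.3 and 202.6 CPM in WT PBS and at 266.7, 256.9 and 238.7 CPM in WT LPS, without overlap (log2 fold change 0.31, SE 0.08, edgeR adjusted p = 0.0226). Rps23, a protein of the decoding centre, was at 220.1, 223.4 and 179.6 CPM in WT PBS and at 292.6, 266.3 and 255.6 CPM in WT LPS (0.39, SE 0.10, adjusted p = 0.0234). Rpl23 was at 192.3, 200.6 and 157.8 CPM and then at 281.7, 236.8 and 230.2 CPM (0.44, SE 0.12, adjusted p = 0.0241). In each of these 3 genes the highest LPS library was WT LPS 9. Rplp0 rose by a log2 fold change of 0.33 (SE 0.10, adjusted p = 0.0431), from 622.4, 642.0 and 545.3 to 854.2, 681.2 and 740.2 CPM. Its stalk partners Rplp1 (0.18, SE 0.11) and Rplp2 (-0.20, SE 0.24) did not pass. The highest WT PBS value of Rplp2, 439.1 CPM, was that of WT PBS 5. Without WT PBS 5 and Adm+/- PBS 6 all were positive and none passed: Rplp0 0.26 (edgeR adjusted p = 0.0804), Rplp1 0.24 (0.0556) and Rplp2 0.19 (0.167). Rplp0 and Rpl37 stood just inside the threshold and were past it in only 1 of the 12 fits that each left out 1 library, and Rpl28 was lost in 8 of them. All 10 changes were under 0.5 on the log2 scale. Rpl23, Rpl27a, Rpl29, Rpl32, Rps12, Rps16 and Rps23 also had an adjusted p below 0.05 without the 2 libraries that stood apart, where Rpl12, Rpl13, Rpl35, Rps2, Rps26, Rps28 and Rps29 joined them. Neutrophil genes moved with the same groups: their summed level was 62.6 to 189.9 CPM in WT PBS and 1721 to 3012 CPM in WT LPS, with 11 of 12 tested genes called higher, and the cell division genes went from 1518 to 1623 CPM to 795 to 1201 CPM, with 7 of 18 called lower, where 1127 of all 15885 tested genes were. Skeletal muscle genes (14 of 14 tested called higher in WT mice and 1 of 14 in Adm+/- mice) and squamous epithelium genes (7 of 8 and 0 of 8) also moved, and 3 of 10 endothelial genes were called lower in each genotype. The part of these lists in the values of the members was not tested.

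In Adm+/- mice the members were again called rarely, and their median lay closer to zero. Of 88, 1 was past both thresholds, Rpl9-ps6 (higher), and 0 were lower, where 25% of all tested genes were past both thresholds and 12.8% were higher. At an adjusted p below 0.05 with any fold change 2 members passed, Rpl9-ps6 and Rps16, against 30.9% of all genes and 15.5% higher. The median log2 fold change was 0.06 over the members and -0.01 over all tested genes, 58 members were positive, and 83 lay within 0.5 of zero against 64.3% of all genes. LPS and PBS libraries did not overlap in 17 members with LPS higher, against 26.6% of all genes, and in 1 member, Rpl22, with LPS lower, against 27.1%. Without WT PBS 5 and Adm+/- PBS 6 the median was 0.10, 75 members were positive, and 4 had an adjusted p below 0.05 against 35.6% of all genes: Rps16, Rps28 and Rpl36al were higher and Rpl22 was lower. The neutrophil sum was 42.9 to 70.2 CPM in Adm+/- PBS and 1637 to 1951 CPM in Adm+/- LPS, with 12 of 12 tested genes called higher. The cell division sum went from 1536 to 1751 CPM to 735 to 1398 CPM, with 6 of 18 called lower, where 1933 of 15885 tested genes were.

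**Figure D3:**
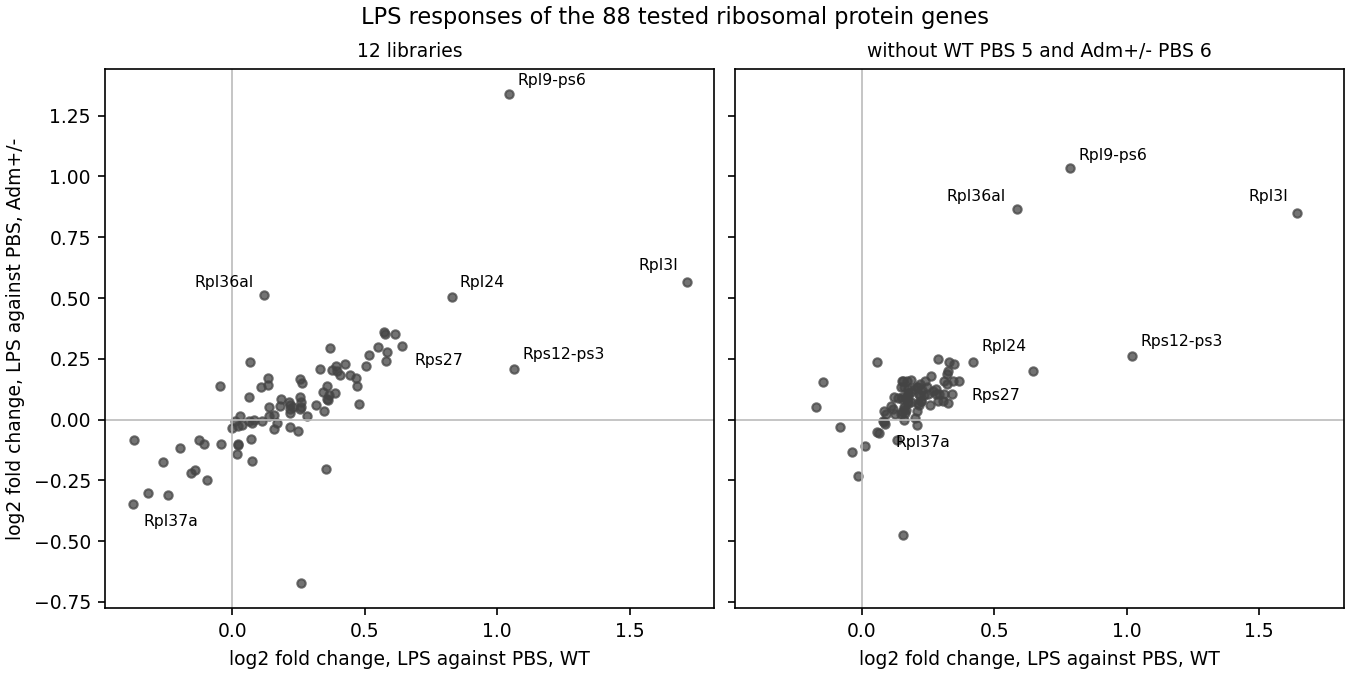
Log2 fold change of LPS against PBS in WT mice (horizontal) and in Adm+/- mice (vertical) for each of the 88 tested members, from 12 libraries (left) and without WT PBS 5 and Adm+/- PBS 6 (right). On the right most members gather in a narrow cloud around the medians of 0.19 and 0.10, and Rpl3l, Rps12-ps3, Rpl9-ps6 and Rpl36al lie outside it.

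Rps16, a small subunit protein whose tail reaches the tRNA in the decoding site, was the abundant member that passed in both genotypes. It was at 207.6, 191.9 and 168.9 CPM in WT PBS and at 262.9, 232.0 and 239.0 CPM in WT LPS (0.37, SE 0.10, edgeR adjusted p = 0.0236). In Adm+/- PBS it was at 182.0, 205.5 and 199.5 CPM and in Adm+/- LPS at 239.6, 251.7 and 229.4 CPM (0.30, SE 0.10, adjusted p = 0.0419). All 6 LPS libraries lay above all 6 PBS libraries. Both passes depended on single libraries: that in WT mice was lost without WT LPS 9 (0.31, adjusted p = 0.110), WT PBS 4 (adjusted p = 0.0505) or WT PBS 5 (adjusted p = 0.0567). The one in Adm+/- mice was lost without any 1 Adm+/- library (0.24 to 0.33, adjusted p from 0.0640 to 0.163) and without WT PBS 4, WT LPS 10 or WT LPS 11 (adjusted p from 0.0523 to 0.0575). Rpl22, which besides its place in the ribosome binds particular RNAs, went the other way in Adm+/- mice, from 123.0, 119.4 and 117.5 CPM to 95.1, 105.2 and 102.6 CPM. Its log2 change of -0.25 (SE 0.09) did not pass with 12 libraries (adjusted p = 0.0538) and passed without the 2 libraries (-0.23, adjusted p = 0.0240), and in WT mice it was -0.09 (SE 0.09, adjusted p = 0.471).

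No member passed the test of the difference between the genotypes' responses. In edgeR 0 of 88 were past both thresholds, where 0.145% of all tested genes were. In the same fit 0 had an unadjusted p below 0.05, against 7.85% of all tested genes. DESeq2 and limma-voom also called 0 members, where they called 0.916% and 0.0063% of all tested genes. The lowest adjusted p was 0.643, for Rpl29 (difference -0.41, SE 0.19), followed by Rpl27a (-0.25, SE 0.12, adjusted p = 0.651). The values leaned to one side, with a median of -0.16 over the members against -0.01 over all tested genes and 73 of 88 negative. Without WT PBS 5 and Adm+/- PBS 6 the median was -0.11 with 8 positive, without WT LPS 9 it was -0.09 with 21 positive, and without WT PBS 5, Adm+/- PBS 6 and WT LPS 9 together it was -0.06 with 23 of 87 positive.

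Between genotypes in PBS 0 members were past both thresholds in edgeR, DESeq2 or limma-voom, as were 0% of all tested genes in each. In edgeR 2 members (2.27%) had an unadjusted p below 0.05, against 2.17% of all tested genes. They were Rpl29 (log2 difference 0.33, SE 0.13) and Rps12-ps3 (0.79, SE 0.35), both with an adjusted p of 0.999. The median over members was 0.09 with 66 positive, and 0.06 with 69 positive without WT PBS 5 and Adm+/- PBS 6. Under LPS 1 member was lower in Adm+/- mice, Rpl3l, and 0 were higher, against 2.05% of all tested genes past both thresholds. The other members were close together there, with a median of -0.05 and 86 of 88 within 0.5 of zero against 85.9% of all genes, and without WT LPS 9 the median was 0.01.

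Rpl3l, the striated muscle paralog of Rpl3, had the largest change. Its counts were 7, 10 and 5 in WT PBS, 41, 35 and 20 in WT LPS, 5, 5 and 3 in Adm+/- PBS, and 5, 6 and 10 in Adm+/- LPS, so every value rests on few reads. In CPM it was 0.355 ± 0.114 in WT PBS and 1.17 ± 0.339 in WT LPS, without overlap, and 0.184 ± 0.0730 and 0.265 ± 0.0855 in the Adm+/- groups, which overlapped (SD, n = 3). The log2 fold change was 1.71 (SE 0.38, edgeR adjusted p = 0.00929) in WT mice and 0.57 (SE 0.48, adjusted p = 0.399) in Adm+/- mice. Under LPS Adm+/- mice were lower by -2.12 (SE 0.38, adjusted p = 0.0168), and the difference of the responses, -1.15 (SE 0.63), did not pass (adjusted p = 0.739). Without any 1 of the 3 Adm+/- LPS libraries the genotype call was lost, with adjusted p from 0.0639 to 0.109. In these fits 0.503% to 0.553% of all tested genes were called, against 2.05% with 12 libraries. Rpl3, the form used in most cells, did not follow: it was at 427.7 to 487.2 CPM in WT PBS and at 437.7 to 505.2 CPM in WT LPS (0.04, SE 0.09). The gene lies at chr17:24727820-24736143 (mm10, plus strand), and its principal transcript shares no 50-base word with another gene.

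Skeletal muscle genes moved with Rpl3l. The summed level of 16 of them was 743, 305 and 505 CPM in WT PBS, 4238, 5393 and 2317 CPM in WT LPS, 188, 523 and 739 CPM in Adm+/- PBS, and 513, 418 and 528 CPM in Adm+/- LPS. All 14 tested genes of the list were called higher in WT mice and 13 were called lower in Adm+/- than in WT mice under LPS, where 10.5% of all tested genes were higher in the former comparison and 273 of 15885 were lower in the latter. In the difference of the responses, where the Rpl3l value did not pass, 8 of the 14 were called lower, as were 23 of 15885 tested genes. Of 10 cardiac muscle genes 0 were called in any comparison, and their sum was 315 to 806 CPM in WT PBS and 376 to 831 CPM in WT LPS. Acta1, skeletal muscle actin, went from 10 to 47 counts per library in WT PBS to 4633 to 19261 in WT LPS, while Tnnc2 and Pvalb stayed at 0 to 7 counts in every library. The order of the 3 WT LPS libraries was the same for Rpl3l and for the muscle sum, with WT LPS 10 highest and WT LPS 11 lowest. The part of the muscle content of the samples in the Rpl3l values was not tested.

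**Figure D4:**
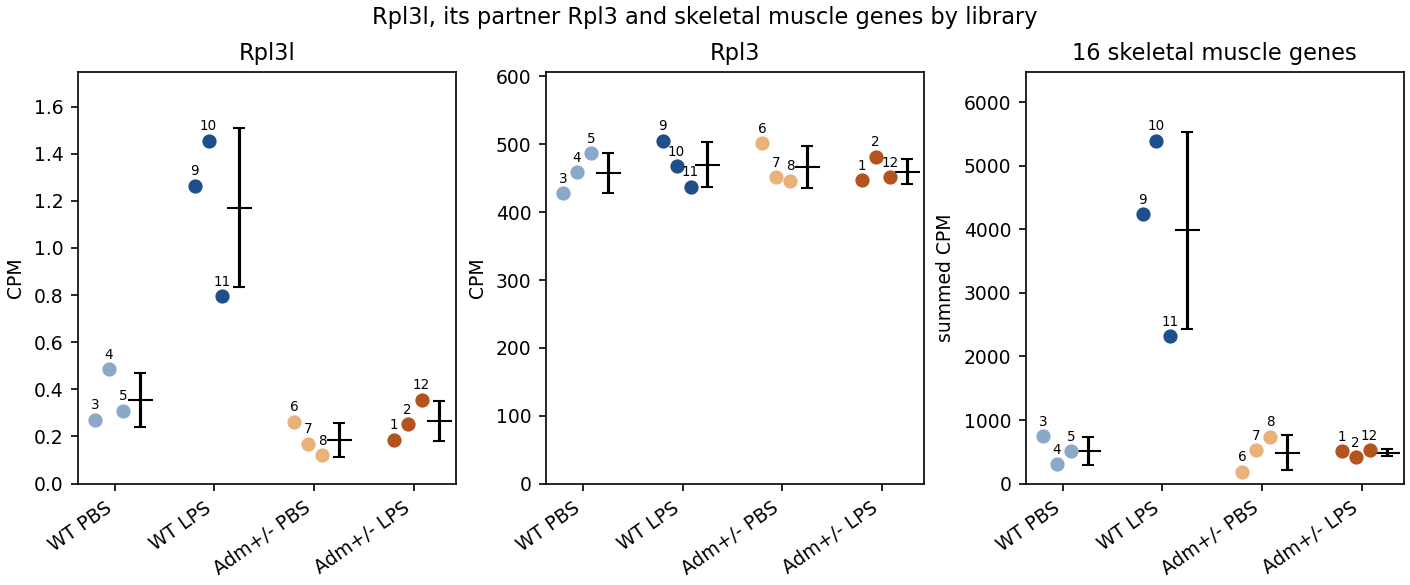
CPM of Rpl3l and Rpl3 and summed CPM of 16 skeletal muscle genes (vertical axes from 0) in each library, with the mean and SD of each group of 3 beside the points. Rpl3l and the muscle sum are high in the 3 WT LPS libraries, and Rpl3 is between 427.7 and 505.2 CPM in every library.

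The other calls fell on 2 rows named as pseudogenes, which were also low. Rps12-ps3 had 10, 6 and 5 counts in WT PBS and 21, 17 and 19 in WT LPS (log2 fold change 1.06, SE 0.34, edgeR adjusted p = 0.0434). None of its 50-base words is its own, since all occur in Rps12 or in other copies, and it lies on the strand opposite to Pdzd8. Its call stood just inside the threshold and was lost when any 1 library other than Adm+/- PBS 8 was left out (adjusted p from 0.0550 to 0.113). Its parent Rps12 had 295.2, 330.5 and 265.2 CPM in WT PBS and 397.6, 381.8 and 361.2 CPM in WT LPS. Rpl9-ps6 had 3, 13 and 13 counts in Adm+/- PBS and 25, 16 and 37 in Adm+/- LPS (1.34, SE 0.42, adjusted p = 0.0330), and its value in WT mice was 1.04 (SE 0.45, adjusted p = 0.114). Only 10.8% of its 50-base words are its own. Its call was lost without Adm+/- PBS 6 (1.02, adjusted p = 0.109) and without Adm+/- PBS 7, Adm+/- LPS 1 or Adm+/- LPS 12 (adjusted p from 0.0681 to 0.142).

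The remaining paralogs showed no call with 12 libraries. Rpl22l1, which can replace Rpl22, was at 48.1 CPM per kb against 243.0 CPM per kb for Rpl22, with log2 changes of 0.34 (SE 0.17) in WT and 0.11 (SE 0.17) in Adm+/- mice. Rpl36al was at 3.55 CPM per kb against 171.7 CPM per kb for Rpl36a. It was at 2.47, 1.45 and 1.15 CPM in Adm+/- PBS and at 2.32, 2.60 and 2.24 CPM in Adm+/- LPS. Adm+/- PBS 6 alone reached the LPS level, and without WT PBS 5 and Adm+/- PBS 6 the log2 change of Rpl36al was 0.87 (adjusted p = 0.0327) against 0.51 (adjusted p = 0.315) with all libraries. Rps27l, a p53 target, was at 42.8 CPM per kb against 383.8 CPM per kb for Rps27, and its changes were 0.26 (SE 0.29) and 0.09 (SE 0.29). On the same scale Rps27rt was at 1.59, Rpl7l1 at 48.9 against 669.7 for Rpl7, and Rps19bp1 at 10.4 CPM per kb. Rps27rt changed by 0.26 (SE 0.37) and -0.67 (SE 0.36), Rpl7l1 by 0.07 (SE 0.10) and 0.24 (SE 0.10), and Rps19bp1 by -0.37 (SE 0.19) and -0.08 (SE 0.19) in WT and Adm+/- mice. None of these differed from zero at an adjusted p below 0.05. Rpl39l, a form known from male germ cells, had at most 10 counts in a library and Rpl10l, another testis form, had 0 in all, beside Rpl10 at 463.6 CPM per kb, and neither they nor 7 rows named as pseudogenes were tested.

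Besides Rpl22, 7 members known for roles outside the ribosome were followed, and with 12 libraries none of these 7 passed either LPS comparison. Rpl5 and Rpl11, which bind Mdm2 when ribosome assembly fails, changed by 0.18 (SE 0.10) and -0.04 (SE 0.14) in WT mice and by 0.08 (SE 0.10) and -0.10 (SE 0.14) in Adm+/- mice. Rpl13a, known for silencing inflammatory mRNAs after interferon gamma, changed by -0.05 (SE 0.15) and 0.14 (SE 0.15), and Rps6, the target of the S6 kinases, by 0.16 (SE 0.11) and 0.02 (SE 0.11). Rps3, also a partner of NF-kappa B, was at 382.3 to 528.2 CPM in all libraries but WT PBS 5, which had 686.5. Rpsa, the laminin receptor form, was at 978.9 CPM in WT PBS 5 and 795.3 in Adm+/- PBS 6 against 429.3 to 579.9 in the others. Rpl38, which affects the translation of Hox mRNAs, was at 203.3 and 200.1 CPM against 115.0 to 151.0. For these 3 genes the highest values of both PBS groups lay in these libraries, and none of their LPS values passed.

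The members spread most widely in WT PBS 5 and Adm+/- PBS 6, where they split. Of the 78 members at 20 CPM or more, 19 lay more than 0.5 below and 11 more than 0.5 above WT PBS 3 and 4 on the log2 scale in WT PBS 5, from -1.60 for Rpl39 to 1.11 for Rpl37a, where 22.1% of all tested genes lay as far below and 20% as far above. In Adm+/- PBS 6, 2 members lay as far below and 6 as far above the other Adm+/- PBS libraries, again from Rpl39 (-0.90) to Rpl37a (0.83), against 11.3% and 9.07% of all tested genes. Rpl39 was at 108.7, 92.9 and 33.1 CPM in WT PBS 3, 4 and 5 and at 58.2, 114.5 and 103.4 CPM in Adm+/- PBS 6, 7 and 8, and Rps27 was at 126.0, 116.0 and 58.6 CPM and at 96.5, 139.6 and 131.0 CPM. Both genes thus had their lowest values in these libraries, where Rpl37a, Rps14, Rpsa and Rplp2 had their highest. The members below also included Rps25, Rps26, Rps28, Rps29, Rpl27, Rpl31 and Rpl35, and those above Rps3, Rps9, Rpl36 and Rpl38, so both subunits stood on both sides. The deviations of the 2 libraries ran together over the 78 members (Spearman's rho 0.926), and higher members tended to be above (rho with mean CPM 0.678 and 0.583), which is given as a description because members share libraries and depth. Length (0.215 and 0.122), GC content (0.213 and 0.242) and the share of own 50-base words (0.0846 and 0.0418) ran less with them. All tested genes spread as widely in these libraries, with an interquartile range of 0.84 in WT PBS 5 and 0.52 in Adm+/- PBS 6 against 0.77 and 0.39 over the members. The shares and ranges of all tested genes include those under 20 CPM, so they are not at like levels with the members. RNA integrity was not among the values at hand, and the part of RNA quality or of the high Gm26917 share in this split was not tested.

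In 3 comparisons of other libraries within a group the 78 members at 20 CPM or more spread less than all tested genes. The latter had no such minimum, so the spreads are not compared at like levels. WT PBS 3 lay below WT PBS 4 in 58 of 78 members, from -0.41 to 0.30, with an interquartile range of 0.20 against 0.31 over all genes. WT LPS 9 exceeded the mean of the other WT LPS libraries in 76 of 78 members and each of them in 70, with a median of 0.16 and an interquartile range of 0.11, where all genes had a median of 0.00 and a range of 0.36. Adm+/- PBS 7 exceeded Adm+/- PBS 8 in 68 of 78 members, with a median of 0.10 and a range of 0.12 against 0.25 over all genes. The median LPS change of 0.22 in WT mice included WT LPS 9, and without that library it was 0.15, so these differences between mice of one group were of similar size to it, and the median of 0.06 in Adm+/- mice was smaller than both. WT LPS 9 also had the highest neutrophil sum, 3012 CPM, and the highest sum of 14 squamous epithelium genes, 2988 CPM against 1.51 to 1534 CPM elsewhere. Of that list Sprr1b was at 0 in every library. The part of either in its higher member level was not tested.

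**Figure D5:**
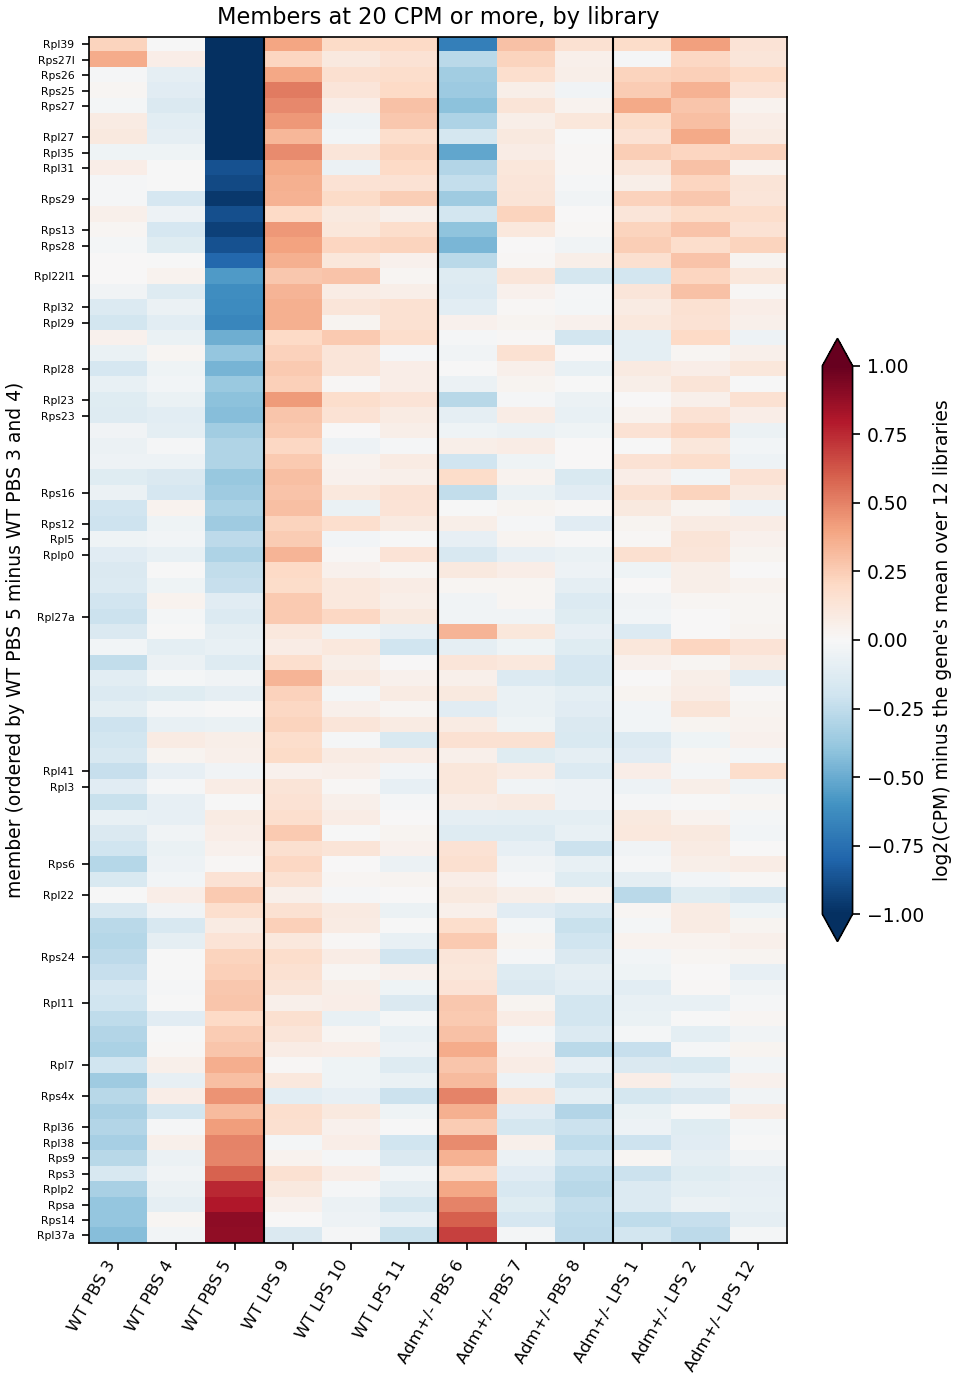
Log2 CPM of the 78 members at 20 CPM or more minus the mean of each gene over the 12 libraries (colour, from -1 to 1), with libraries in columns and members in rows ordered by their deviation in WT PBS 5, with some rows named. WT PBS 5 shows the widest split, from -1.60 for Rpl39 to 1.11 for Rpl37a relative to WT PBS 3 and 4, Adm+/- PBS 6 shows a similar but weaker split, and WT LPS 9 is raised over nearly all rows.

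Fau and Rack1, which lie outside the name pattern, were not called. Fau, which encodes Rps30 fused to a ubiquitin-like protein, changed by 0.01 (SE 0.20) in WT and -0.06 (SE 0.20) in Adm+/- mice. Rack1, a scaffold on the small subunit, was at 399.2, 425.5 and 367.9 CPM in WT PBS and at 517.7, 447.2 and 444.1 CPM in WT LPS. Its groups did not overlap, but its change of 0.24 (SE 0.09) did not pass (edgeR adjusted p = 0.0818).

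Of 42 ribosome biogenesis genes, 1 was called higher in WT mice, against 10.5% of all tested genes, and 7 in Adm+/- mice, against 12.8%, with medians of 0.20 and 0.29, and 0 were lower. Gnl3, which encodes nucleostemin, was at 20.5, 18.4 and 13.0 CPM in WT PBS and at 34.1, 34.4 and 22.4 CPM in WT LPS (0.81, SE 0.20, edgeR adjusted p = 0.0162). In Adm+/- mice it was at 18.1, 24.2 and 19.0 CPM and then at 37.6, 40.7 and 38.1 CPM (0.93, SE 0.20, adjusted p = 0.00495), without overlap in either genotype. Heatr1, a factor of the small subunit precursor, changed by 0.48 (SE 0.17, adjusted p = 0.0595) in WT and 0.81 (SE 0.17, adjusted p = 0.00378) in Adm+/- mice, and 0 of the 42 passed the test of the difference. Nhp2, a protein of the H/ACA particles that modify rRNA, changed by 0.49 (SE 0.13, adjusted p = 0.0244) and 0.39 (SE 0.13, adjusted p = 0.0441). Of 43 translation factors 1 was called higher in each genotype, Pabpc1 (0.54) in WT and the release factor gene Etf1 (0.65) in Adm+/- mice. Etf1 in WT mice (0.49) and Eif5 in both (0.44 and 0.50) had an adjusted p below 0.05 and stayed within 0.5. Of 10 RNA polymerase I genes 0 were called in either genotype, although Polr1a, its largest subunit, had an adjusted p of 0.0397 (log2 fold change 0.29) and 0.00677 (0.39). Taf1d (0.61 and 0.59) did not pass, and Polr1b changed by 0.32 (adjusted p = 0.0950) and 0.41 (adjusted p = 0.0299).

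Of 20 genes of mTORC1 and TOP mRNA control, 5 were called higher in WT mice, and 5 higher and 1 lower in Adm+/- mice, where 10.5% of all tested genes were called higher in WT mice, 12.8% were higher in Adm+/- mice and 1933 of 15885 were lower there. Deptor, an inhibitor of mTOR, was at 37.1, 42.6 and 28.3 CPM in WT PBS and at 83.9, 84.3 and 57.9 CPM in WT LPS (1.07, SE 0.17, edgeR adjusted p = 0.00175). In Adm+/- mice it was at 25.8, 28.4 and 31.2 CPM and then at 96.2, 106.1 and 100.3 CPM (1.83, SE 0.17, adjusted p = 7.04e-05). Sesn1 was called higher in WT mice (0.59, SE 0.13, adjusted p = 0.00834) and changed by 0.43 (SE 0.13, adjusted p = 0.0254) in Adm+/- mice. Sesn2, which restrains mTORC1 when leucine is short, rose by 0.58 (SE 0.13, adjusted p = 0.0102) and 0.93 (SE 0.13, adjusted p = 0.000438). Genes of opposite roles stand in this list, since Myc, which activates ribosomal protein genes, was also called higher (0.72 in WT and 1.39 in Adm+/- mice). The other protein sets of translation and energy moved little: of 77 tested mitochondrial ribosomal protein genes 1 was lower in WT and 5 in Adm+/- mice, with medians of -0.09 and -0.12, and of 78 nuclear oxidative phosphorylation genes 2 and 3 were lower, with medians of 0.02 and -0.07. Of all 15885 tested genes, 1127 were called lower in WT mice. The lowest p values of the mitochondrial ribosomal list were those of Mrps35 (-0.37 and -0.49) and Mrps6 (-0.54 and -0.96), and those of the oxidative phosphorylation list were Cox4i2 (-0.50 and -0.36) and Uqcrfs1 (0.27 and 0.16) in WT mice and Atp5s (-0.31 and -0.92) and Cox4i2 in Adm+/- mice.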

How the data were processed

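The authors deposited whole-number raw read counts per gene for the 12 libraries, without normalization or a filter on genes. Per the labels, reads were trimmed with Trim Galore, aligned with HISAT2 to mm10 and counted with featureCounts, from a directional kit with rRNA depletion. The strand option and the treatment of reads that fit several places are not given in the sources used here, which bears on genes with pseudogene copies or opposite-strand neighbours.

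Of 21950 protein-coding genes, 15885 passed edgeR's filterByExpr over the 4 groups and were normalized by TMM in R 4.3.3. All 12 libraries entered 1 edgeR 4.0.16 model (glmQLFit, glmQLFTest) of the 4 group means without covariates, which left 8 residual degrees of freedom. From it came 5 contrasts: the LPS response of either genotype, the difference of these responses, and Adm+/- against WT under either treatment. Calls required a Benjamini-Hochberg adjusted p under 0.05 over all tested genes and a log2 fold change beyond 0.5 in either direction. The standard error was the fold change divided by the square root of the quasi-likelihood F. CPM used the TMM library sizes of the tested genes, and log2 CPM for deviations between libraries used a prior count of 2. Scripts were tested on simulated counts. No 2 libraries of a group agreed within sampling noise. With separate mice as replicates, p-values measure the spread between 3 mice per group.

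Positions, lengths and shared 50-base words came from Gencode M21 for mm10, which held 52403 of the 52550 genes, and promoters from RefSeq (GRCm38.p6). Named in full were the 5 members highest per kilobase, the members called in each contrast or the 2 with the smallest p, fixed paralogs and members with roles outside the ribosome, Adm, Fau and Rack1, and the 2 smallest p of a list discussed. Members with an adjusted p below 0.05 alone, those of the split in WT PBS 5, Rpl22, Rpl24, Rplp1, Rplp2, Acta1, Tnnc2, Pvalb, Sprr1b, Pabpc1, Polr1b and Myc were named after their values were seen. Some genes are not reported here by name. The members and lists were chosen with earlier results of these data known. DESeq2 1.42.0, limma 3.58.1 (voom), other scalings, filters and left-out libraries served as alternatives. Counting precision covers counting error only, since reads carry no molecular identifiers.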

Additional observations from a re-analysis of the deposited data

How the results depend on the processing

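No paired analysis was possible because the groups share no replicate numbers: each number in the labels belongs to 1 library. In WT mice under LPS the count of members called higher was 2 (17.6% of all tested genes were called), and became 4 with DESeq2 (20% of all genes) and 3 with limma-voom (17.1%), which called Rps28 and Rps29, and in DESeq2 Rps27, in place of Rps12-ps3. It was 1 without a filter on low counts (14.6% of all genes), with all annotated genes (13.2%), or without WT PBS 5 and Adm+/- PBS 6 together (15.3%). With only the libraries of the comparison it was also 1, where 7.39% of all genes were called. It was 0 without WT PBS 5, Adm+/- PBS 6 and WT LPS 9 (10.4%), an alternative chosen after seeing the data. When a single library was left out it was 1 to 9, where 9% to 19.1% of all genes were called. It was 9 without WT PBS 3 (19.1%) and 1 without WT LPS 9 (9%). The 9 included Rps13, Rps25, Rps27, Rps28 and Rps29, each more than 0.5 below the other WT PBS libraries in WT PBS 5. In Adm+/- mice the count of 1 higher became 0 to 1 when a single library was left out, where 18.8% to 27.9% of all genes were called. Under LPS the count of 1 lower in Adm+/- mice also became 0 to 1, where 0.503% to 3.56% of all genes were called. It was 0 without Adm+/- LPS 1 (0.503%), 2 (0.534%) or 12 (0.553%). The median log2 fold change over members in WT mice, 0.22, was 0.15 to 0.27 with single libraries left out and 0.14 without the 3 libraries, and that of the difference of responses, -0.16, was -0.19 to -0.092 and -0.060.

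As a share of counts on protein-coding genes the members took 1.96% in WT PBS, 2.16% in WT LPS, 2.07% in Adm+/- PBS and 1.999% in Adm+/- LPS. Fold changes that had not passed changed sign: for LPS in WT mice Rps14 (-0.32) became 0.12 and 0.10, and Rpl37a (-0.37, the lowest of the members) 0.089 and 0.098, without the 2 and the 3 libraries, and Rps24 became -0.0049 with all annotated genes. In Adm+/- mice Rps14 (-0.30) became 0.024 without the 2 and 0.022 without the 3 libraries, and Rps24 became -0.0015 with all annotated genes. With single libraries left out these ranged from -0.57 to 0.12 (Rps14 in WT), -0.63 to 0.088 (Rpl37a in WT), -0.086 to 0.15 (Rps24 in WT), -0.46 to 0.016 (Rps14 in Adm+/-), -0.051 to 0.075 (Rps24 in Adm+/-) and -0.023 to 0.097 (Rpl41 in Adm+/-). None of these 6 values was called in any setting, and why they moved was not tested. Over its alternatives the adjusted p of Rps12-ps3 in WT mice ran from 0.0429 to 0.145, past the threshold only with RLE size factors, with TMM without the members and without Adm+/- PBS 8, that of Rpl9-ps6 in Adm+/- mice from 0.0236 to 0.142 and that of Rpl3l in WT mice from 0.00724 to 0.0630. Depth limits Rpl3l, Rps12-ps3 and Rpl9-ps6, each with at most 41 counts in a library.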
